A study of Mus musculus with 131 samples.

Results

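The Snrpn to Magel2 imprinted domain was taken as the stretch of chromosome 7 from 59.2 to 62.5 Mb in mm10, and its members were the 200 bp windows of that interval with at least 1 covered CpG cytosine in each of 3 bisulfite libraries. The interval held 16500 windows, and 6886 of them (41.7%) had a value in all 3 libraries, of 7638465 such windows in the genome (56.1% of all windows). The libraries were embryonic stem cells (ESCs) homozygous for the Gjb2 35delG deletion at p7, ESCs with an Actin-RFP transgene at p10, and wild-type mouse embryonic fibroblasts (MEF) at p2, all of strain C57BL/6J. The study injected ESCs into diploid host embryos to obtain homozygous mutant mice, and it also sequenced RNA of single cells from such embryos at E4.0, 55 RFP cells from the injected Actin-RFP ESCs and 40 GFP cells from the Actin-GFP host. Each bisulfite group is 1 library, so values are compared with their counting error only and no test was run. Cell type, genotype, line and passage differ together between the libraries and cannot be told apart.

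In this domain, the promoter shared by Snurf and Snrpn is methylated on the maternal chromosome from the oocyte onward and unmethylated on the paternal one, which places a normal average near 50%. From the paternal chromosome the genes Snrpn, Ndn, Magel2, Mkrn3 and Peg12 and the long noncoding RNA Snhg14, host of arrays of small nucleolar RNAs (snoRNAs), are expressed, while Ube3a, a ubiquitin ligase gene, is silenced on that chromosome in neurons by the antisense part of Snhg14. The matching human region is that of Prader-Willi and Angelman syndromes. A library average cannot tell a methylated and an unmethylated allele in every cell from a mixture of cells, and the deposited windows do not separate the parental alleles.

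The start sequences that carry the comparison are printed here, 250 bases before to 50 bases after each annotated start, on the strand of the gene, with every CpG in capitals because the CpG is the unit that bisulfite sequencing reads. They come from RefSeq on GRCm38.p6, which shares its coordinates with mm10. Snurf (chr7:60005150-60005449, minus strand) held 7 CpGs, the most distal Snrpn start, called start 4 here (chr7:60450128-60450427, minus strand), held 2, Ube3a (chr7:59228500-59228799, plus strand) held 29, Ndn (chr7:62348027-62348326, plus strand) held 11 and Mkrn3 (chr7:62420104-62420403, minus strand) held 15.
Snurf: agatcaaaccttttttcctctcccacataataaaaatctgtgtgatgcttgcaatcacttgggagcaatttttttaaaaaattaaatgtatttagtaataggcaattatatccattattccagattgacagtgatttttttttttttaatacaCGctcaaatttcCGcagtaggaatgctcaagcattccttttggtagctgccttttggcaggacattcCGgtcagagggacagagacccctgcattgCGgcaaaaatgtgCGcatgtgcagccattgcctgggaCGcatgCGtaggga
Snrpn start 4: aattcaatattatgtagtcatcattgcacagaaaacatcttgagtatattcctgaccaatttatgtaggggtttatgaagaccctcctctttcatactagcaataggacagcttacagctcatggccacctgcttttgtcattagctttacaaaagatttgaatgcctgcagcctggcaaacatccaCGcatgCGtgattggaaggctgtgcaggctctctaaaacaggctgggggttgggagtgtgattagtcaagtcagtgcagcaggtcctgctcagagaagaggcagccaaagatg
Ube3a: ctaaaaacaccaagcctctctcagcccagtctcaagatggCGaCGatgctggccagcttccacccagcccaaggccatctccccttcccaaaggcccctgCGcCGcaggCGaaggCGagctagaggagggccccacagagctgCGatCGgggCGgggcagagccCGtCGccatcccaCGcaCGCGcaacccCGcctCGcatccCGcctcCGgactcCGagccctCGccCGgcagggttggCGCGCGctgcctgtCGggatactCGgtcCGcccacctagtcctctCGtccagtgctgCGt
Ndn: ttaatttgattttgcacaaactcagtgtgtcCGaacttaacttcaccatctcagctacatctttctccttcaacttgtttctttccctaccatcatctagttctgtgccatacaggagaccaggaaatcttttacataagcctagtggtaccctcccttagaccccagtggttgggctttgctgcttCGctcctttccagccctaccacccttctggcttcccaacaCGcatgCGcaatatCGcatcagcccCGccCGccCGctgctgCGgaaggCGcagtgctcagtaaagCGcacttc
Mkrn3: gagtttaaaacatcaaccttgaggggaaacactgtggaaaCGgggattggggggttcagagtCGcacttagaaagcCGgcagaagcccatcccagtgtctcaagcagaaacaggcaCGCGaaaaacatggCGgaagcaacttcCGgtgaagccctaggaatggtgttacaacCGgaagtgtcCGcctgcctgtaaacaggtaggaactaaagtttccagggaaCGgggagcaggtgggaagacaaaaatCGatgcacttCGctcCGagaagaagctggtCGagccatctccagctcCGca

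Snrpn has 3 annotated starts upstream of the Snurf start, at 42.8, 135 and 445 kb from it, called starts 2, 3 and 4. The 3 are copies of one another by sequence, with 84.1% to 88.4% identical columns in local alignments of 285 to 296 columns. All 3 share this run of 49 bases, which is in no other start of the 32544 searched.
Shared run of the upstream Snrpn starts: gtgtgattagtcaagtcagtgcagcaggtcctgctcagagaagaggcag
The longest run shared by the 3 upstream starts and the Snurf start is aCGcatgCGt, 10 bases that are in 33 of all starts and contain CGCATGCG, the core letters of the site of Nrf1, a transcription factor. Searched on both strands, CGCATGCG was in 5 of the 9 starts of the domain (Snurf, the 3 upstream Snrpn starts and Ndn) and in 1.87% of the 32544 starts of the same length. This word was picked after the sequences had been read, and 3 of its 5 matches lie in the copied starts. TGCCGC, the hexamer that the imprint protector Zfp57 binds when methylated, was in 1 of the 9 starts, that of Snurf, on the opposite strand from -2 bp, and in 11.7% of all starts. The 2 words do not overlap in the Snurf start. These matches describe the letters of the windows and are no measurement of binding.

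Methylation across the domain was far lower in Actin-RFP ESCs and slightly lower in Gjb2-35delG ESCs than in MEF. Outside the 1000 bp on either side of the annotated starts, the mean over 6831 windows was 63.3% in Gjb2-35delG ESCs, 28.3% in Actin-RFP ESCs and 70.6% in MEF. Over the rest of chromosome 7 the means were 66.6%, 37.8% and 77.1% in the same order of libraries, so the domain was below the rest of its chromosome in each library. As a share of the MEF level, Actin-RFP ESCs kept 40.04% outside the starts of the domain and 49.05% over the rest of chromosome 7. Gjb2-35delG ESCs kept 89.7% outside the starts and 86.4% over the rest of the chromosome. Windows are sparse in CpGs here, with a median of 2 covered cytosines in each library, and 2042 of the 6886 windows (29.7%) had at least 20 calls in all 3.

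At a threshold of 30 percentage points below MEF, 766 windows of the domain (11.1%) were lower in Gjb2-35delG ESCs, against 14.4% of all windows of the genome. In Actin-RFP ESCs 4965 windows (72.1%) were lower, against 71.3% of the genome. At least 30 points above MEF were 204 windows (2.96%) in Gjb2-35delG ESCs, against 2.58% of the genome, and 4 windows (0.0581%) in Actin-RFP ESCs, against 0.279% of the genome. The shares of lower windows and the Gjb2-35delG share of higher ones were near their background, while the Actin-RFP share of higher windows was below it, on a count of 4. Across the 2042 windows of at least 20 calls, levels had a Pearson correlation of 0.64 between Gjb2-35delG ESCs and MEF, 0.51 between Actin-RFP ESCs and MEF, and 0.68 between the ESC lines, as a description over windows that share libraries and CpG density.

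Along the domain, Actin-RFP ESCs were higher on the Ube3a side of the Snurf start than on the Ndn side. Bin means over 100 kb ran from 52.6% to 74.3% in Gjb2-35delG ESCs, from 19.3% to 40.4% in Actin-RFP ESCs and from 62.1% to 86.2% in MEF, and they were below MEF in 29 of 33 bins in Gjb2-35delG ESCs and in 33 of 33 in Actin-RFP ESCs. On the Ube3a side, the 1417 windows between the end of Ube3a and the Snurf start averaged 69.7% in Gjb2-35delG ESCs, 37.0% in Actin-RFP ESCs and 70.2% in MEF. Of these windows, 570 lay in the first and 397 in the second snoRNA array, repeats where reads could be placed on the wrong copy. On the other side, the 4760 windows between the Snurf start and Ndn averaged 61.8% in Gjb2-35delG ESCs, 25.3% in Actin-RFP ESCs and 70.4% in MEF. MEF therefore had nearly the same mean on both sides, while each ESC line was lower on the Ndn side. The bins do not place this change sharply. The 8 bins before the one that holds the Snurf start ran from 32.01% to 40.4% in Actin-RFP ESCs and the other 25 from 19.3% to 36.2%, so they overlapped. Between the last of the 8 and the bin of the Snurf start all 3 libraries were lower in the second bin, with 62.5% after 67.99% in Gjb2-35delG ESCs, 23.9% after 34.3% in Actin-RFP ESCs and 68.8% after 75.7% in MEF. The same split appeared in counts, with 55.5% of windows at least 30 points below MEF on the Ube3a side and 77.2% on the Ndn side in Actin-RFP ESCs. In Gjb2-35delG ESCs the share was 5.43% on the Ube3a side and 12.3% on the Ndn side. Over all windows of the genome the shares were 71.3% in Actin-RFP ESCs and 14.4% in Gjb2-35delG ESCs. In both lines the Ube3a side was farther from the genome share than the Ndn side.

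**Figure D1:**
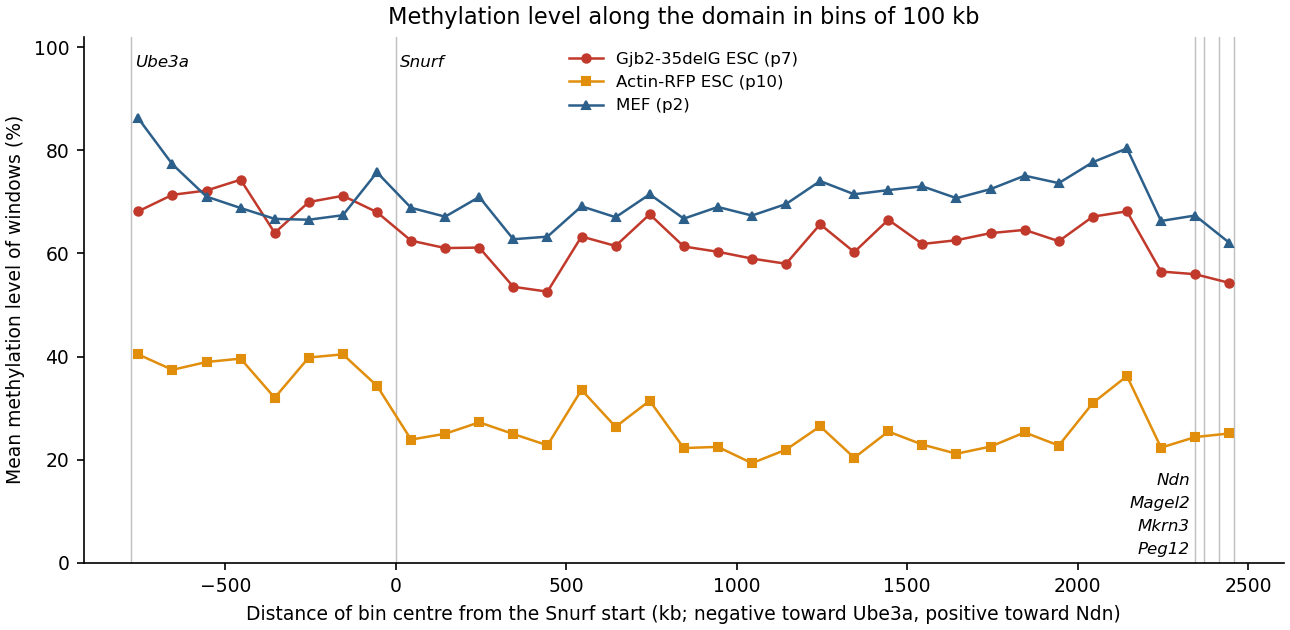
Mean methylation level (%) of the windows in each of 33 bins of 100 kb, against the distance of the bin centre from the Snurf start (kb), for Gjb2-35delG ESCs (circles), Actin-RFP ESCs (squares) and MEF (triangles), with the gene starts as grey lines. Actin-RFP ESCs lie between 19.3% and 40.4% and below MEF in every bin, and Gjb2-35delG ESCs meet or pass MEF only on the Ube3a side, in 4 bins.

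Windows near 50%, from 35% to 65%, were 38.2% of the domain in Gjb2-35delG ESCs, 28.6% in Actin-RFP ESCs and 28.2% in MEF, against 27.4%, 47.4% and 12.6% of all windows of the genome in the same libraries. MEF thus had more such windows in the domain than across the genome, and Actin-RFP ESCs fewer. Of the 1939 domain windows near 50% in MEF, 1031 (53.2%) were also near 50% in Gjb2-35delG ESCs, while the count in Actin-RFP ESCs was 325 (16.8%), against 42.6% and 31.3% of the windows near 50% in MEF across the genome. The median level of those 1939 windows was 55.3% in Gjb2-35delG ESCs, 17.1% in Actin-RFP ESCs and 54.7% in MEF.

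At the Snurf/Snrpn promoter, Gjb2-35delG ESCs were close to MEF in the windows that all 3 libraries share and below MEF when every covered window was counted, and levels in Actin-RFP ESCs were uneven. Of the 10 windows within 1000 bp of the start, 4 were covered in all 3 libraries. Their mean was 39.7% in Gjb2-35delG ESCs, 22.1% in Actin-RFP ESCs and 42.8% in MEF. With all calls of the 4 windows pooled, 103 of 264 calls were methylated in Gjb2-35delG ESCs (39.02%, 95% Wilson interval 33.3% to 45.02%), 76 of 227 in Actin-RFP ESCs (33.5%, 27.7% to 39.8%) and 172 of 407 in MEF (42.3%, 37.6% to 47.1%). Intervals here and in what follows cover counting error only and treat each call as independent. Calls on one DNA fragment are not independent, so the intervals may be too narrow, and whether they overlap is a description. The intervals of Gjb2-35delG ESCs and MEF overlapped over most of their width, and those of Actin-RFP ESCs and MEF overlapped from 37.6% to 39.8%. All 3 pooled intervals lay below 50%. With every window that each library covered within 1000 bp, pooled levels were 35.96% in Gjb2-35delG ESCs (5 windows, 31.1% to 41.07%), 30.2% in Actin-RFP ESCs (5 windows, 24.8% to 36.1%) and 45.9% in MEF (6 windows, 41.8% to 50.02%). Neither ESC interval then overlapped that of MEF, but the windows were not the same in each library.

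Taken window by window, the library from Actin-RFP ESCs was uneven. The window at chr7:60005001-60005200, which holds the start and the first transcribed bases, was at 39.1% in Gjb2-35delG ESCs (51 of 131 calls, interval 31.01% to 47.5%), 56.4% in Actin-RFP ESCs (53 of 92 calls, 47.4% to 67.2%) and 36.9% in MEF (41 of 117 calls, 27% to 44.04%). Actin-RFP ESCs were highest there, with an interval above that of MEF, but their 92 calls fell on 13 cytosines and are not independent. The next window upstream, centred at -101 bp, was at 55.7% in Gjb2-35delG ESCs (21 of 36 calls), 0.0% in Actin-RFP ESCs (0 of 15 calls, upper bound 20.4%) and 45.6% in MEF (23 of 53 calls). Downstream, the window at 499 bp was at 34.9% in Gjb2-35delG ESCs (24 of 73 calls), 25.5% in Actin-RFP ESCs (20 of 81) and 48.1% in MEF (72 of 150). At 699 bp the levels were 29.2% in Gjb2-35delG ESCs (7 of 24 calls), 6.44% in Actin-RFP ESCs (3 of 39) and 40.5% in MEF (36 of 87). All 4 windows were near 50% in MEF by the 35% to 65% range, 2 were in Gjb2-35delG ESCs and 1 was in Actin-RFP ESCs. Leaving out each window in turn put the mean between 34.4% and 43.2% in Gjb2-35delG ESCs, between 10.6% and 29.4% in Actin-RFP ESCs and between 40.99% and 44.7% in MEF. The Actin-RFP mean was lowest, 10.6%, without the window that holds the start and highest, 29.4%, without the window at -101 bp.

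Further into the gene the same unevenness continued. At 1499 bp downstream (chr7:60003601-60003800) the level was 26.7% in Gjb2-35delG ESCs (7 of 27 calls), 51.01% in Actin-RFP ESCs (25 of 52) and 31.4% in MEF (14 of 45). At 1699 bp it was 22.2% in Gjb2-35delG ESCs, 45.96% in Actin-RFP ESCs and 40% in MEF, on 9, 20 and 16 calls. At 1899 bp it was 44.6% in Gjb2-35delG ESCs, 36.7% in Actin-RFP ESCs and 67.2% in MEF. Over the 7 shared windows from 200 bp upstream to 2000 bp downstream, the mean was 36.04% in Gjb2-35delG ESCs, 31.7% in Actin-RFP ESCs and 44.2% in MEF. Pooled calls of these 7 gave 38.6% in Gjb2-35delG ESCs (33.8% to 43.7%), 37.0% in Actin-RFP ESCs (32.3% to 41.96%) and 45.5% in MEF (41.4% to 49.6%). By this longer stretch, chosen after the values were seen, Actin-RFP ESCs kept 71.7% of the MEF level, against 51.6% for the 4 windows nearest the start. Some windows were read in only 1 or 2 libraries, such as the one at 299 bp, with 26.02% in Gjb2-35delG ESCs (25 of 92 calls), no call in Actin-RFP ESCs and 57.6% in MEF (67 of 113 calls). With every covered window from 200 bp upstream to 2000 bp downstream, pooled levels were 35.8% in Gjb2-35delG ESCs (31.8% to 40.1%), 34.4% in Actin-RFP ESCs (30.1% to 39.1%) and 47.2% in MEF (43.8% to 50.7%).

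**Figure D2:**
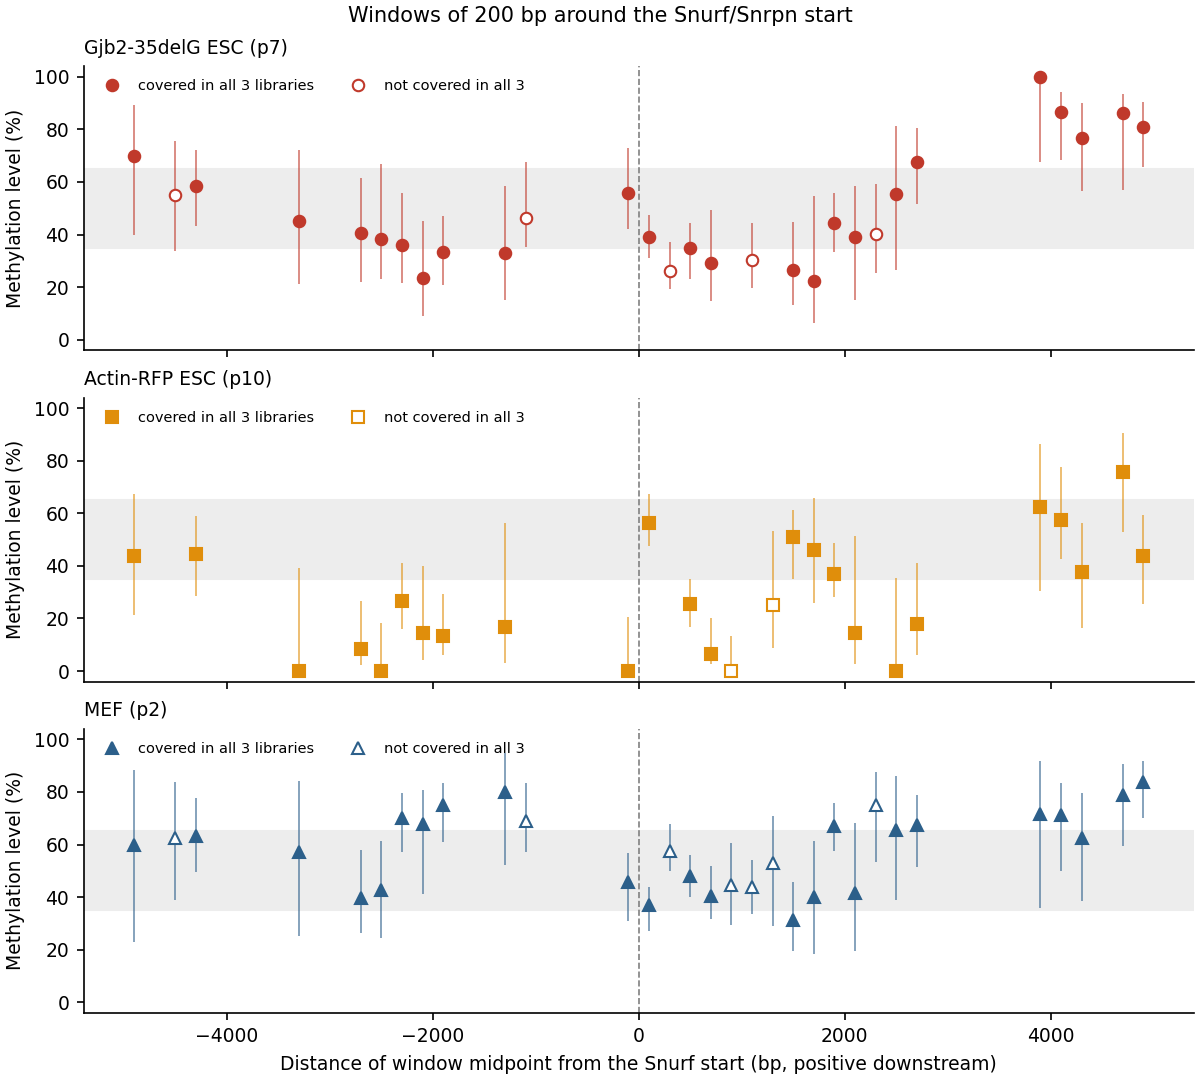
Methylation level (%) of each covered 200 bp window against the distance of its midpoint from the Snurf start (bp, positive downstream), in Gjb2-35delG ESCs (top), Actin-RFP ESCs (middle) and MEF (bottom). Filled points are covered in all 3 libraries, lines are 95% Wilson intervals of the calls and the grey band runs from 35% to 65%, within which all 4 shared windows nearest the start lie in MEF and the window of the start, at 56.4%, lies in Actin-RFP ESCs.

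Upstream of the promoter MEF was higher than at the promoter. Actin-RFP ESCs were lower upstream only when the window that holds the start was counted at the promoter. Pooled levels of Actin-RFP ESCs were 22.3% upstream (17.1% to 28.6%) and 33.5% at the promoter (27.7% to 39.8%), so these intervals barely overlapped. In Gjb2-35delG ESCs they were 41.7% upstream (35.1% to 48.5%) and 39.02% at the promoter (33.3% to 45.02%). From 1000 to 5000 bp upstream, 9 windows averaged 41.99% in Gjb2-35delG ESCs, 18.6% in Actin-RFP ESCs and 61.8% in MEF. Without the window that holds the start, the promoter mean of Actin-RFP ESCs was 10.6%, below that of this flank. The window at -1901 bp had 33.2% in Gjb2-35delG ESCs (15 of 46 calls), 13.3% in Actin-RFP ESCs (5 of 35) and 75.1% in MEF (42 of 57). The 4 shared windows centred from -2301 to -1301 bp ran from 23.4% to 36% in Gjb2-35delG ESCs. They ran from 13.3% to 26.7% in Actin-RFP ESCs and from 67.9% to 80% in MEF, so neither ESC range met that of MEF. These windows were picked from the 9 after their values were seen. At -1301 bp, on 15, 6 and 11 calls in Gjb2-35delG ESCs, Actin-RFP ESCs and MEF, both ESC intervals overlapped that of MEF. At -2101 bp that of Gjb2-35delG ESCs did too. Across the genome, 71.3% of windows were at least 30 points below MEF in Actin-RFP ESCs. For the other ESC line this share was 14.4%. At -2501 bp the levels were 38.3% in Gjb2-35delG ESCs (16 calls), 0.0% in Actin-RFP ESCs (17 calls) and 42.9% in MEF (24 calls), so the high MEF stretch did not run on. Beyond 2000 and up to 5000 bp downstream, 8 windows averaged 74.1% in Gjb2-35delG ESCs, 38.6% in Actin-RFP ESCs and 67.8% in MEF. Relative to MEF, Gjb2-35delG ESCs kept 92.9% at the promoter, 68.0% in the upstream flank and 89.7% in the rest of the domain. Actin-RFP ESCs kept 51.6% at the promoter, 30.2% in the upstream flank and 40.04% in the rest of the domain. The pooled calls put the promoter at 79.2% of MEF in Actin-RFP ESCs, where 53 of the 76 methylated calls came from the window that holds the start. Leaving out each promoter window in turn put the share by means between 23.8% and 70.4% in Actin-RFP ESCs. It was lowest without the window that holds the start. In Gjb2-35delG ESCs this share ran from 82.2% to 100.8%. Whether the promoter kept more of the MEF level than the rest of the domain therefore depended on the windows used.

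Among windows of enough depth, the highest differences of Actin-RFP ESCs over MEF were inside Snurf, and the 4 domain windows at least 30 points above MEF had under 20 calls in some library. Among the 2042 windows of at least 20 calls in all 3 libraries, the highest difference over MEF was 19.6 points at chr7:60003601-60003800, 1499 bp downstream of the start, and the next was 19.5 points at chr7:60005001-60005200, the window of the start. The following ones were 16.5 points at chr7:60775001-60775200 and 12.7 points at chr7:62140601-62140800, neither in an annotated gene, and 12.4 points at chr7:62376401-62376600, inside the noncoding gene Gm32061 and 0.4 kb upstream of Magel2. In Gjb2-35delG ESCs the highest differences lay elsewhere. The first was 57.9 points at chr7:59463001-59463200, with 87.9% in Gjb2-35delG ESCs (30 calls) and 29.96% in MEF (38 calls). The next 3, of 54.7, 42.2 and 40.4 points, also lay within the span of Snhg14, and the fifth, of 38.1 points, was at chr7:60622801-60623000, in no annotated gene. These windows were picked for their difference, so their sizes are descriptions.

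Within the domain, Actin-RFP ESCs were higher in windows with many covered cytosines, which was not so across the genome. There, windows with 10 or more covered cytosines in MEF averaged 38.3% in Actin-RFP ESCs, against 38.5% over all windows. The 192 domain windows with 10 or more covered cytosines in MEF averaged 65.2% in Gjb2-35delG ESCs, 41.9% in Actin-RFP ESCs and 73.0% in MEF. The 4518 windows with under 4 averaged 61.96% in Gjb2-35delG ESCs, 26.2% in Actin-RFP ESCs and 69.2% in MEF. Of the dense windows, 17.7% were near 50% in Gjb2-35delG ESCs, 49.5% in Actin-RFP ESCs and 9.90% in MEF. Across the genome, 495565 windows had 10 or more covered cytosines in MEF. Near 50% were 87354 of them in Gjb2-35delG ESCs, 254262 in Actin-RFP ESCs and 41146 in MEF. Over all windows of the genome, dense or not, the shares were 27.4%, 47.4% and 12.6%. The Actin-RFP share was thus near its background. In Gjb2-35delG ESCs and MEF, dense windows had lower shares than all windows across the genome as well. The window of the Snurf start had 22, 13 and 19 covered cytosines in Gjb2-35delG ESCs, Actin-RFP ESCs and MEF. A level near 50% in Actin-RFP ESCs was thus common among windows of its kind and among windows at large. The count of covered cytosines depends on coverage as well as on CpG density, and the part of either in the result was not tested.

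The upstream Snrpn starts, which share their sequence, were more methylated in MEF than the Snurf start, with pooled intervals beginning at 54.3% or above, against an upper bound of 47.1% at the Snurf start. At start 4, where the transcripts of Snrpn and Snhg14 farthest from Snurf begin, the mean over 6 windows was 47.8% in Gjb2-35delG ESCs, 12.9% in Actin-RFP ESCs and 60.4% in MEF. At start 3 the 6 windows averaged 64.1% in Gjb2-35delG ESCs, 27.7% in Actin-RFP ESCs and 71.3% in MEF. At start 2 the 4 windows averaged 51.3% in Gjb2-35delG ESCs, 17.4% in Actin-RFP ESCs and 64.0% in MEF. Pooled calls put Actin-RFP ESCs at 19.6% to 21.4% at these 3 starts, with upper bounds from 27.95% to 32.4%. At the Snurf start they gave 33.5% (27.7% to 39.8%), an interval that overlapped all 3. By means, Actin-RFP ESCs were higher at start 3 than at the Snurf start, at 22.1%. That mean fell to 10.6%, below all 3 upstream starts, without the window that holds the Snurf start. The window centred 122 bp upstream of start 2 (chr7:60048001-60048200) was at 62.6% in Gjb2-35delG ESCs (57 calls), 19.5% in Actin-RFP ESCs (77 calls) and 73.6% in MEF (71 calls). Windows at start 3 ran from 52.3% to 85.7% in Gjb2-35delG ESCs, from 7.14% to 80% in Actin-RFP ESCs, where the highest had 5 calls, and from 53.8% to 90.0% in MEF. At start 4 they ran from 25% to 64.1% in Gjb2-35delG ESCs, from 0.0% to 35.7% in Actin-RFP ESCs and from 28.1% to 85.4% in MEF.

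**Figure D3:**
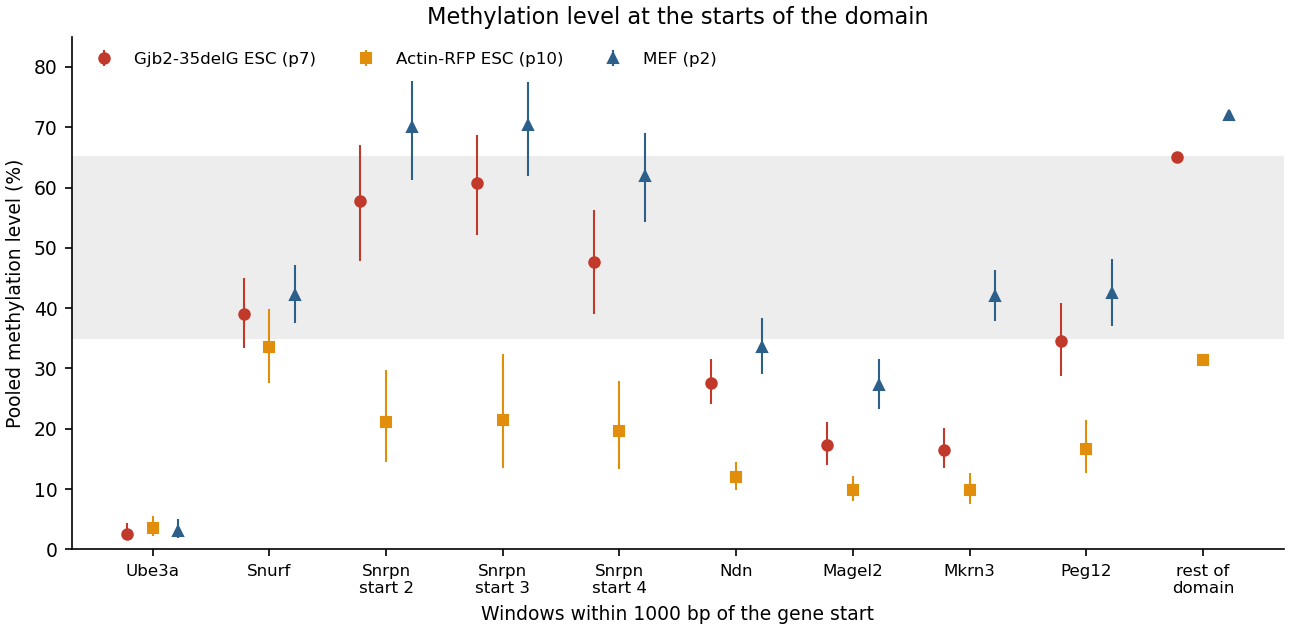
Methylation level (%) from pooled calls of the windows within 1000 bp of each start, ordered from Ube3a to Peg12, and of the rest of the domain, for Gjb2-35delG ESCs (circles), Actin-RFP ESCs (squares) and MEF (triangles), with 95% Wilson intervals and a grey band from 35% to 65%. By pooled calls the 3 libraries lie closest together at Ube3a, from 2.62% to 3.57%, and at Snurf, from 33.5% to 42.3%. By means of windows they were closer at Magel2, from 13.4% to 26.1%, than at Snurf, from 22.1% to 42.8%.

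The Ube3a start lies in a CpG island and was unmethylated in all 3 libraries. The 6 windows within 1000 bp had a pooled level of 2.62% in Gjb2-35delG ESCs (14 of 534 calls, 1.57% to 4.35%), 3.57% in Actin-RFP ESCs (18 of 504 calls, 2.27% to 5.57%) and 3.09% in MEF (15 of 486 calls, 1.88% to 5.03%), and the intervals overlapped. The low stretch ended sooner downstream in MEF. At 1950 bp the level was 8.33% in Gjb2-35delG ESCs (24 calls), 10.3% in Actin-RFP ESCs (49 calls) and 70.3% in MEF (59 calls). In the body of Ube3a, 176 windows averaged 69.05% in Gjb2-35delG ESCs, 40.4% in Actin-RFP ESCs and 89.7% in MEF, the highest MEF mean of the gene bodies and stretches compared.

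Between Ube3a and Snurf lies the part of Snhg14 that carries the snoRNA arrays, and there Gjb2-35delG ESCs reached the MEF level. The first array, 134 annotated snoRNAs at a median spacing of 1871 bp, averaged 72.9% in Gjb2-35delG ESCs, 39.3% in Actin-RFP ESCs and 70.1% in MEF over 570 windows. The second, 70 snoRNAs at 2528 bp, averaged 70.4% in Gjb2-35delG ESCs, 40.2% in Actin-RFP ESCs and 67.0% in MEF over 397 windows. Both arrays are near-identical repeats, so reads could be placed on the wrong copy, and 570 of the 1359 windows of the first and 397 of the 1157 windows of the second had a value in all 3 libraries. The body of Snurf, 57 windows, averaged 64.1% in Gjb2-35delG ESCs, 38.6% in Actin-RFP ESCs and 76.9% in MEF.

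The long stretch between Snrpn and Ndn holds no protein-coding gene of the rule, and its 3883 windows averaged 62.3% in Gjb2-35delG ESCs, 25.3% in Actin-RFP ESCs and 71.0% in MEF. It includes the cluster of 13 Mir344 microRNA genes, which averaged 64.2% in Gjb2-35delG ESCs, 24.97% in Actin-RFP ESCs and 74.3% in MEF over 731 windows. Of the noncoding genes with at least 3 windows at a start, B230209E15Rik, a long noncoding RNA, had the lowest levels in both ESC lines, with 33.5% in Gjb2-35delG ESCs, 4.86% in Actin-RFP ESCs and 65.4% in MEF over 3 windows. The 10 such starts ranged from 33.5% to 62.8% in Gjb2-35delG ESCs, from 4.86% to 27.2% in Actin-RFP ESCs and from 58.0% to 82.5% in MEF. The start of Ipw, a noncoding RNA gene on the Ube3a side that runs between the snoRNA arrays, was one of them, with 62.8% in Gjb2-35delG ESCs, 26.7% in Actin-RFP ESCs and 61.7% in MEF.

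At the Ndn end of the domain the genes are short and CpG-rich, and levels within 1000 bp of their starts were uneven, with low windows next to high ones. The mean over those 1000 bp on either side was 45.3% in Gjb2-35delG ESCs, 18.4% in Actin-RFP ESCs and 40.6% in MEF at Ndn. At Mkrn3 it was 32.7% in Gjb2-35delG ESCs, 19.01% in Actin-RFP ESCs and 44.4% in MEF, and at Peg12 it was 35.1%, 20.7% and 51.3% in the same order of libraries. At each of these 3 genes the covered window nearest to the start was lower than the gene's mean in all 3 libraries. Ndn encodes necdin, a MAGE family protein of neurons. Its window at 23 bp, which holds the start, was at 3.304% in Gjb2-35delG ESCs (116 calls), 3.51% in Actin-RFP ESCs (117 calls) and 21% in MEF (53 calls). At 423 bp the level was 20.8% in Gjb2-35delG ESCs, 2.22% in Actin-RFP ESCs and 6.12% in MEF. Inside the gene, the order of Gjb2-35delG ESCs and MEF turned round. At 623 bp Ndn had 56.7% in Gjb2-35delG ESCs (interval 42.3% to 68.8%), 11.1% in Actin-RFP ESCs (6.79% to 19.3%) and 28.6% in MEF (17.2% to 43.6%). At 823 bp it had 52.2% in Gjb2-35delG ESCs (41.7% to 63.1%), 16.4% in Actin-RFP ESCs (12.7% to 24.1%) and 35.6% in MEF (26.9% to 44.4%). At 1023 bp the levels were 60.6%, 28.2% and 28.4% in the same order of libraries. The gene body of 9 windows averaged 46.9% in Gjb2-35delG ESCs, 26.3% in Actin-RFP ESCs and 37.9% in MEF, while its pooled calls gave 32.5%, 15.1% and 33.2%, so the order of Gjb2-35delG ESCs and MEF depends on how windows are weighted.

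Magel2, another MAGE family gene, had a low stretch from its start to 521 bp. At 321 bp the level was 3.70% in Gjb2-35delG ESCs (151 calls), 4.09% in Actin-RFP ESCs (219 calls) and 23.3% in MEF (130 calls). Within 1000 bp its 7 windows averaged 17.3% in Gjb2-35delG ESCs, 13.4% in Actin-RFP ESCs and 26.1% in MEF. Downstream at 1121 bp the level was 82.2% in Gjb2-35delG ESCs, 68.0% in Actin-RFP ESCs and 97.6% in MEF, and the 21 windows of the gene averaged 56.4%, 35.0% and 73.8%.

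Mkrn3, a gene for a ring-finger protein, showed the widest gap between ESCs and MEF among the gene bodies of the domain. Its 10 windows averaged 24.6% in Gjb2-35delG ESCs, 10.9% in Actin-RFP ESCs and 61.6% in MEF. Pooled calls gave 18.9% in Gjb2-35delG ESCs (121 of 640 calls, 16.1% to 22.1%), 7.14% in Actin-RFP ESCs (50 of 700 calls, 5.46% to 9.29%) and 63.7% in MEF (411 of 645 calls, 59.9% to 67.3%), and no interval overlapped another. At 1253 bp the level was 11.2% in Gjb2-35delG ESCs (45 calls), 9.92% in Actin-RFP ESCs (64 calls) and 86.4% in MEF (62 calls). At its start, the window at 53 bp was at 0.0% in Gjb2-35delG ESCs (0 of 48 calls, upper bound 7.41%), 1.93% in Actin-RFP ESCs (91 calls) and 22.9% in MEF (92 calls). Upstream at -347 bp the levels were 61.8% in Gjb2-35delG ESCs, 23.9% in Actin-RFP ESCs and 66.6% in MEF.

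Peg12, an intronless paternally expressed gene, had a low mean over its body in both ESC lines. Its 9 windows averaged 17.9% in Gjb2-35delG ESCs, 7.12% in Actin-RFP ESCs and 32.5% in MEF, with a highest window of 71.7% in Gjb2-35delG ESCs, 33.1% in Actin-RFP ESCs and 85.3% in MEF. The window at -190 bp was at 1.39% in Gjb2-35delG ESCs (58 calls), 3.33% in Actin-RFP ESCs (29 calls) and 25.3% in MEF (60 calls). At 1610 bp the level was 3.57% in Gjb2-35delG ESCs (95 calls), 2.0% in Actin-RFP ESCs (67 calls) and 30.2% in MEF (62 calls). Between these genes, stretches averaged 50.1% to 57.4% in Gjb2-35delG ESCs, 20.6% to 24.9% in Actin-RFP ESCs and 61.7% to 69.2% in MEF.

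**Figure D4:**
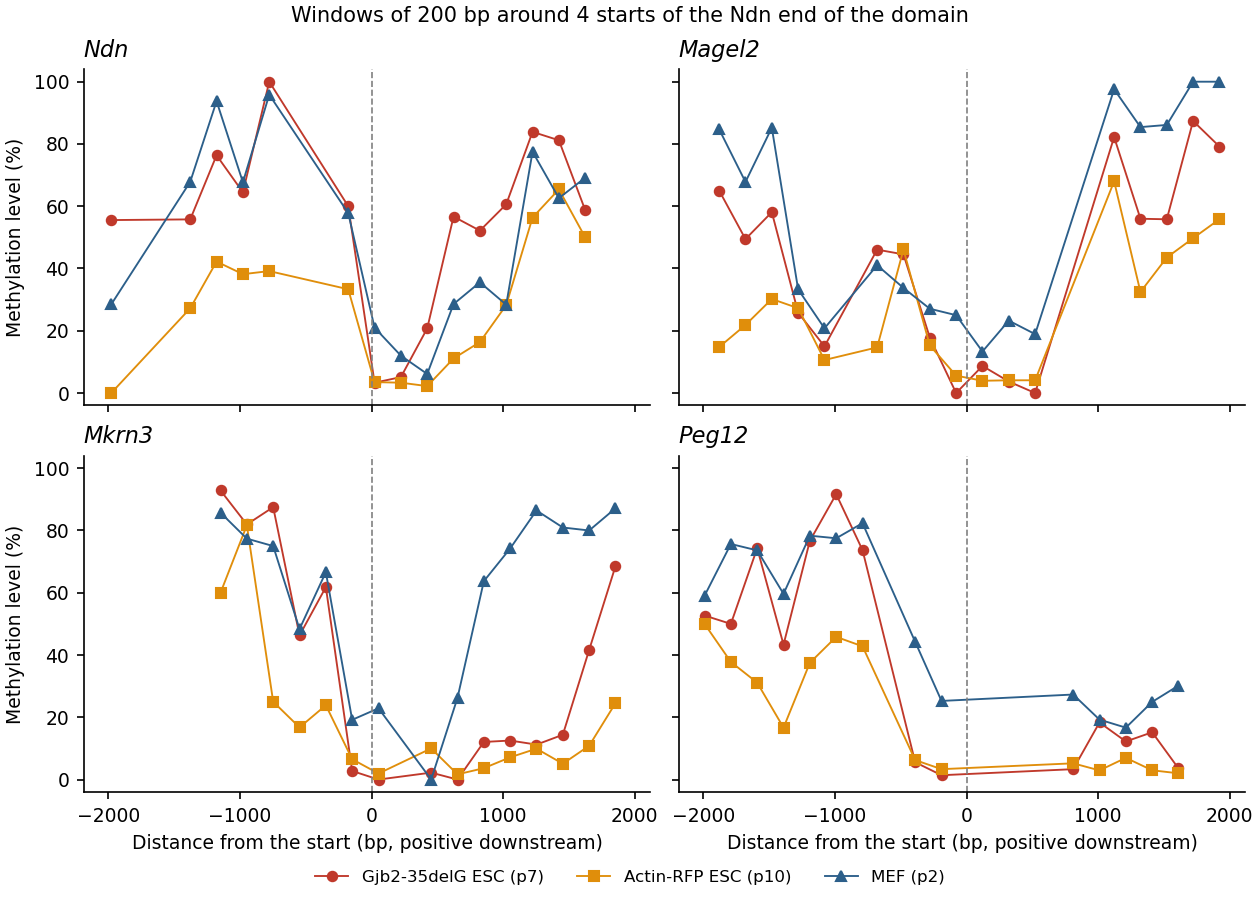
Methylation level (%) of the shared 200 bp windows against the distance of their midpoint from the start (bp, positive downstream) at Ndn, Magel2, Mkrn3 and Peg12, for Gjb2-35delG ESCs (circles), Actin-RFP ESCs (squares) and MEF (triangles). MEF lies above both ESC lines inside Mkrn3, at 63.7% to 86.4% from 853 to 1453 bp, while Gjb2-35delG ESCs lie above MEF inside Ndn from 423 to 1023 bp.

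The starts of 11 other genes with a maternally methylated imprint were measured in the same way. As a share of MEF by means, the Snurf start was in the middle of the 12. By mean level it ranked 8 of 12 in Gjb2-35delG ESCs and 6 of 12 in Actin-RFP ESCs. By pooled level the ranks were 8 and 1. In MEF its mean level of 42.8% was above only that of Grb10, at 9.23%. The levels of the 12 starts ran from 19.02% to 67% in Gjb2-35delG ESCs with a median of 43.8%, from 5.76% to 39.4% in Actin-RFP ESCs with a median of 19.8%, and from 9.23% to 70.3% in MEF with a median of 50.5%. Of the 12, 9 were from 35% to 65% in Gjb2-35delG ESCs, 1 (Airn) in Actin-RFP ESCs and 9 in MEF. Gjb2-35delG ESCs were below MEF at 9 of the 12 starts, and Actin-RFP ESCs at 12. As a share of MEF, the Snurf start ranked 5 of 12 in Gjb2-35delG ESCs, with 92.9%, and 6 of 12 in Actin-RFP ESCs, with 51.6%. With pooled calls it ranked 6 of 12 in Gjb2-35delG ESCs and 1 of 12 in Actin-RFP ESCs, with 79.2% beside a median of 47.1%. Where a gene has several starts, the one with most CpGs in its printed length was used, and Grb10 was low in all 3 libraries at the start so chosen. At the Inpp5f start so chosen, MEF windows ran from 0.0% to 94.2%, with 0 of 8 from 35% to 65%. These 2 starts may therefore not be the methylated ones of their genes. By means, both ranked above Snurf as a share of MEF, with 150% and 78.1% at Inpp5f and 206% and 62.4% at Grb10 in Gjb2-35delG and Actin-RFP ESCs. Peg10, Peg13 and Impact were not analysed here.

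**Figure D5:**
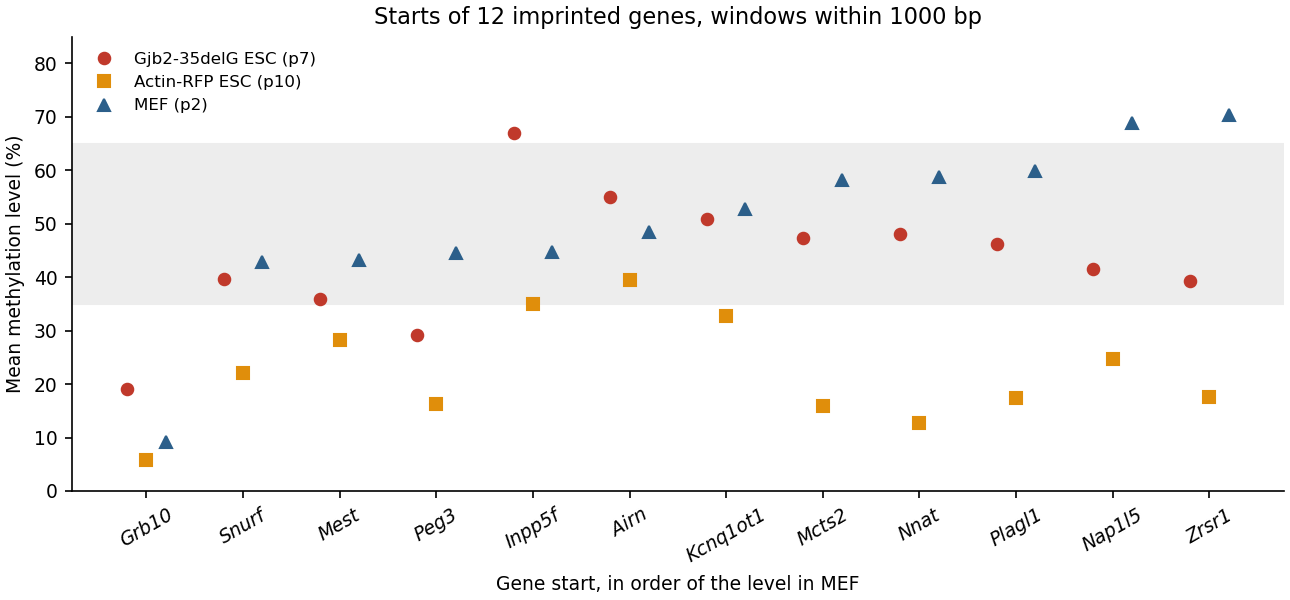
Mean methylation level (%) of the windows within 1000 bp of the starts of 12 imprinted genes, in order of the MEF level, for Gjb2-35delG ESCs (circles), Actin-RFP ESCs (squares) and MEF (triangles), with a grey band from 35% to 65%. Actin-RFP ESCs lie below MEF at all 12, and at Snurf the values are 39.7%, 22.1% and 42.8% in that order of libraries.

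The libraries were checked against promoters that tell ESCs from fibroblasts. The 4 pluripotency promoters measured (Pou5f1, Nanog, Zfp42 and Tdgf1) ran from 2.56% to 4.15% in Gjb2-35delG ESCs, from 2.19% to 4.35% in Actin-RFP ESCs and from 38.1% to 76.7% in MEF. The 3 fibroblast promoters measured (Col1a2, Col3a1 and Twist2) ran from 12.9% to 63% in Gjb2-35delG ESCs, from 7.77% to 47.6% in Actin-RFP ESCs and from 5.26% to 18.7% in MEF, where each was lowest. The libraries held 288 M, 319 M and 317 M CpG calls in Gjb2-35delG ESCs, Actin-RFP ESCs and MEF. In the domain, 48.6% of windows were covered in Gjb2-35delG ESCs, 43.96% in Actin-RFP ESCs and 49.7% in MEF.

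Of the genes of the domain, the deposited expression table of the blastocyst cells holds Snrpn, Ube3a, Mkrn3 and Peg12, and Snurf, Ndn, Magel2 and Snhg14 were not analysed here. Snrpn, which encodes a spliceosome protein and shares its transcript with Snurf, had more reads in RFP cells, on the CPM scale, which divides by all reads of a group. Summed over the 55 RFP cells it reached 795 CPM (95% Poisson interval 792 to 798). Summed over the 40 GFP cells it reached 277 CPM (274 to 279), and on log2(CPM + 1) RFP cells were 1.52 above GFP cells. Cell by cell it ran from 0.0 to 1905 CPM in RFP cells with a median of 762, and from 0.0 to 642 CPM in GFP cells with a median of 250.2, so the groups overlapped. Over all 13927 genes of the table the median of this difference was 0.08, and 24.97% of the genes were at least 1 higher in RFP cells. Snrpn had a read in 53 of 55 RFP cells and in 38 of 40 GFP cells.

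The level of Ube3a was 72.4 CPM over RFP cells (71.4 to 73.3). Over GFP cells it was 65.3 CPM (64.2 to 66.4), a difference of 0.15 on the same scale. The median cell was at 17.97 CPM among RFP cells and at 29.9 CPM among GFP cells, the reverse order, so Ube3a was not separated between the groups. The counting is not stated to use strand, so reads of Ube3a and of its antisense partner cannot be told apart. Mkrn3 was at 6.22 CPM in RFP cells, with a read in 6 of 55, and at 0.0268 CPM in GFP cells, with a read in 1 of 40. Peg12 had a read in 1 of 55 RFP cells and in 0 of 40 GFP cells, which allows up to 3 reads or 0.0134 CPM over the summed GFP reads. The labels tie no cell to an embryo, and each group of cells was therefore taken as 1 sample, with no test and with intervals for counting error only. RFP and GFP cells also differed in lineage markers. The trophectoderm gene Gata3 had 7.37 CPM in RFP cells and 795 CPM in GFP cells. The epiblast gene Fgf4 had 516 CPM in RFP cells and 3.57 CPM in GFP cells, so the origin of the cells and their lineage cannot be told apart. These cells were not bisulfite sequenced, and no level of methylation is known for them.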

How the data were processed

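Bisulfite libraries of DNA from Gjb2-35delG ESCs, Actin-RFP ESCs and MEF were made with a kit that ligates adapters to converted single-stranded fragments, per the labels and design text. The authors deposited, for each 200 bp window, a methylation fraction averaged over its CpG cytosines, together with call counts, methylated and unmethylated. The last deposited column was read as the number of covered CpG cytosines, with the strands apart, because 735 of 1108 windows that could be checked against a start sequence gave a number above their CpGs. In 15 of the 1108 it was above 2 per CpG, which this reading does not account for. No window had under 5 calls per cytosine so counted. The submitters' processing notes list, with no role or order, mm10 as the build and DESeq2 1.30.0, deepTools 3.3.1, featureCounts 2.0.0, StringTie 2.0, fastp 0.20.0 and STAR 2.7.3a. The programs for bisulfite alignment and calling, and their handling of repeats, were not given in the sources used here.

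A level is the mean of window fractions, or methylated over all calls where pooled. Window intervals are 95% Wilson intervals of the calls, so a window's level can differ slightly from its call ratio. Windows belong to a start when their midpoint lies within 1000 bp of it. The deposited expression values are a signal, per-cell scaled gene read counts by the authors, and whole reads were recovered for 100% of values within 0.01. Starts and sequences are from RefSeq, GRCm38.p6. Named genes were Ube3a, Snurf, Snrpn, Ndn, Magel2, Peg12 and Mkrn3, and annotated genes with at least 3 windows within 1000 bp of their start. A list of other genes with a maternally methylated imprint was also named. Windows named by rule were those within 1000 bp of the Snurf and Snrpn starts and, among windows of at least 20 calls in all 3 libraries, the 5 highest differences of each ESC line over MEF. Other windows were chosen after their values were seen. Members, lists and thresholds were chosen with earlier results of these data known. The steps were tested on simulated data. Python 3.11.15, pandas 2.3.3, numpy 2.4.6, scipy 1.17.1, matplotlib 3.10.9 and Biopython 1.88 were used. Amplicon counts deposited by the authors were not used here.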

Additional observations from a re-analysis of the deposited data

How the results depend on the processing

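Of 59 alternative values, 36 stayed near the value reported, within its counting error for a level or within 1.5 times for a share of windows, and 23 moved beyond that. At the Snurf/Snrpn start the Actin-RFP level of 22.1% moved to 29.4% with at least 20 calls or at least 4 cytosines in all 3 libraries, to 33.5% with pooled calls, to 31.7% from 200 bp upstream to 2000 bp downstream and to 37.01% with that stretch pooled. The MEF level of 42.8% moved to 51.6% with 2000 bp on either side. The Gjb2-35delG level stayed within its counting error, from 34.4% to 43.2%. Outside the starts, at least 20 calls gave 65.2% in Gjb2-35delG ESCs, 32.6% in Actin-RFP ESCs and 72.5% in MEF. Pooled calls gave 65.1%, 31.4% and 71.99%, and at least 4 cytosines gave 66.5%, 34.8% and 74.03%, in the same order of libraries. The share of windows at least 30 points below MEF in Gjb2-35delG ESCs, 11.1%, was 7.10% with at least 20 calls, 24% at 20 points and 4.56% at 40 points. The share of MEF windows near 50% was 18.7% for the range from 40% to 60%. As a mean over cells, Snrpn was 735 CPM in RFP cells and 268 CPM in GFP cells, and Ube3a was 67.04 CPM in RFP cells and 61.9 CPM in GFP cells. At the Snurf/Snrpn start Actin-RFP ESCs were lowest under these alternatives. MEF was highest in them too, but without the window at 499 bp the mean was 41.3% in Gjb2-35delG ESCs and 40.99% in MEF. For windows near 50%, Actin-RFP ESCs had a larger share than MEF at 35% to 65% and a smaller one, 37.7% against 38.5%, at 30% to 70%. The stretch to 2000 bp and the windows covered in a single library were added after seeing the data.

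The level at the Snurf/Snrpn start rests on 4 windows and 227 to 407 calls in each library. Whether Gjb2-35delG ESCs differed from MEF there depends on the windows, since pooled intervals overlapped over the shared windows and did not over all windows covered in each library, 35.96% in Gjb2-35delG ESCs and 45.9% in MEF. No paired analysis was possible because each group has 1 library.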
